A study of Mus musculus with 3 samples.

Results

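The genes described here encode the nuclear subunits of the mitochondrial respiratory chain in LSK cells of *Calr* knock-in mice. Members were taken by gene symbol: every row whose symbol begins with *Nduf*, *Uqcr*, *Cox4*, *Cox5*, *Cox6*, *Cox7*, *Cox8* or *Atp5*, together with *Sdha*, *Sdhb*, *Sdhc*, *Sdhd* and *Cyc1*. The rule was met by 94 of 36172 genes, and 86 of these had a read in at least 1 library. The prefixes also take in 6 assembly factors of complex I (*Ndufaf1* to *Ndufaf6*) and *Atp5s* and *Atp5sl*, which encode no subunit. The 8 members without a read were *Cox4i2*, *Cox7a1*, *Cox7b2*, *Cox8b*, *Cox8c*, *Ndufa4l2*, *Atp5l2* and *Atp5l-ps1*.

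Complexes I and II of the chain pass electrons from NADH and succinate to ubiquinone, complex III passes them to cytochrome c, and complex IV passes them to oxygen. Complexes I, III and IV pump protons across the inner membrane as they do so, and complex V lets the protons back to make ATP. Hematopoietic stem cells are known for leaning on glycolysis while quiescent and for drawing more on respiration as they divide and differentiate.

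RNA was sequenced from 3 libraries of LSK cells, a bone marrow fraction sorted for Sca1 and c-Kit and against lineage markers, in which stem cells and multipotent progenitors are found. Wild-type mice (WT) and heterozygous carriers of the *Calr* ins2 or del10 allele, all labelled as C57BL/6, with the knock-in lines on C57BL/6 J, gave 1 library each. Both knock-in alleles, made with CRISPR-Cas9, are germline changes that shift the reading frame in the last exon of *Calr*, so every cell of the animal carries them and the WT mice carry neither. Cells of 4 males, 3 months old, went into each library, so the spread between animals is not known, no difference could be checked in replicates, and no p-value is given.

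The WT library stood apart from both knock-in libraries. The gene counts summed to 9823095 reads in WT against 10967622 in ins2 and 11111698 in del10. In WT a gene with few reads most often had 61 of them, against 21 in ins2 and 16 in del10, and this number was taken as the reads left by 1 starting RNA fragment. The sum of 12 LSK and multipotent progenitor markers was 2823 normalized counts in WT against 13694 in ins2 and 16874 in del10; *Cd34* and *Mecom* were at 0 in WT, and *Procr* was at 0 in WT and ins2. The sum of 12 B-lineage markers ran the other way, with 58289, 15791 and 14228. That of 8 basophil and mast cell markers was 1384, 19856 and 28807, and that of 6 stromal markers 8011, 3497 and 2248. The sum of 8 T and NK cell markers was 2842, 8517 and 3649, that of 9 neutrophil markers 1766, 2171 and 4185, and that of 6 erythroid markers 2190, 1684 and 2928. WT was thus the lowest or the highest of the 3 in every one of these sums but the erythroid one. In the T and NK cell sum, however, ins2 lay furthest from the other libraries, and in the neutrophil sum del10 did. The part of these markers in the values of the respiratory chain genes was not tested. In such bulk samples fewer cells of a type and less RNA per cell cannot be told apart. The ratio of del10 to ins2 uses no WT count of the gene and is given beside those to WT. The main set defined below, however, is chosen by the mean of all 3 libraries, WT included.

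The promoters of respiratory chain genes are known targets of NRF1, GABP (an ETS factor) and YY1, which gives these scattered genes a shared control. RefSeq promoter windows of GRCm38.p6, from 250 bases before to 50 bases after the annotated start, were matched for 72 of the 86 members. The NRF1 letters GCATGCGC, on either strand, stood in the windows of 12 members (16.7%), against 3.05% of 27025 genes with a window. In the main set defined below they stood in 6 of 39 members (15.4%), against 6.55% of 5713 genes. The ETS and GABP letters CCGGAAG were found in 17 members (23.6%), against 9.93% of all genes, and in 11 main-set members (28.2%), against 22.8% of main-set genes. The YY1 letters AANATGGCG were found in 11 members (15.3%), against 2.76% of all genes, and in 4 main-set members (10.3%), against 7.12%. The ERR letters TCAAGGTCA stood in 2 members (2.78% against 0.466% of all genes), both in the main set (5.13% against 0.263%). The CREB and ATF letters TGACGTCA stood in 4 members (5.56% against 2.03%), 2 of them in the main set (5.13% against 3.83%).

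The stretches below show the 130 bases before the annotated start of 4 members, 5′ to 3′ on the gene's strand, with the motif letters in capitals. They were chosen for carrying a match there in genes with low (*Ndufs3*), intermediate (*Sdhb*) and high (*Atp5e*, *Atp5g2*) ratios to WT.
Ndufs3 (GRCm38.p6 chr2:90904722-90904851, minus strand; ETS and GABP letters on the gene's strand): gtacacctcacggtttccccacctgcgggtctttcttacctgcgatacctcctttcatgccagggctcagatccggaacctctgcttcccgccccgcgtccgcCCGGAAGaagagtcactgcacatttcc
Atp5e (GRCm38.p6 chr2:174464102-174464231, minus strand; ETS and GABP letters on the other strand): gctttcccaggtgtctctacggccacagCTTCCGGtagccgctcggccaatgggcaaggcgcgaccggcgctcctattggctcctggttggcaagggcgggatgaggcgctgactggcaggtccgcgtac
Sdhb (GRCm38.p6 chr4:140961141-140961270, plus strand; NRF1 letters on the gene's strand): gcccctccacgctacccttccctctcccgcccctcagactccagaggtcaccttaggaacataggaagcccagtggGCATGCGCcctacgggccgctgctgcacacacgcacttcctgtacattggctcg
Atp5g2 (GRCm38.p6 chr15:102671048-102671177, minus strand; NRF1 letters on both strands, overlapping): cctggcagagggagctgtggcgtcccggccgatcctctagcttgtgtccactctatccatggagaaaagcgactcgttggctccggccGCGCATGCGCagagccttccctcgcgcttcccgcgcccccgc
Since these 4 genes were chosen by their ratios, nothing about the letters follows from their values. Over the main set, the 18 members with NRF1, ETS or YY1 letters had median log2 ratios of -0.0020 for del10 to WT, 0.15 for ins2 to WT and -0.13 for del10 to ins2. The 21 members with a window and none of these letters had -0.0010, 0.05 and -0.09.

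Levels are given as normalized counts, which are the deposited read counts multiplied by the authors' scaling factor of the library. Ratios are log2((normalized count + 1)/(normalized count + 1)), which understates the difference of low genes. The main set holds the 7073 of 14145 genes with a read whose mean over the 3 libraries was at least 215 normalized counts, the median of all genes with a read. It included 49 of the 86 members: all 7 core subunits of complex I and 10 of 29 accessory ones, none of the 6 assembly factors of complex I, all 4 subunits of complex II, 6 of 9 members of complex III, 10 of 14 of complex IV and 12 of 17 of complex V. Just inside the main set were *Ndufv2* (mean 216), *Ndufc2* (217) and *Uqcrq* (224), and just outside it *Atp5sl* (215), *Ndufs4* (201) and *Cox7a2* (189). Each ratio has an exact binomial interval (95%) computed on fragments, that is reads divided by the 61, 21 or 16 above, which covers counting error only. A main-set member had a median of 7.51 fragments in WT, 24.2 in ins2 and 30.5 in del10, so 15 of the 49 rested on under 5 fragments in WT and none did in the other libraries.

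**Figure D1:**
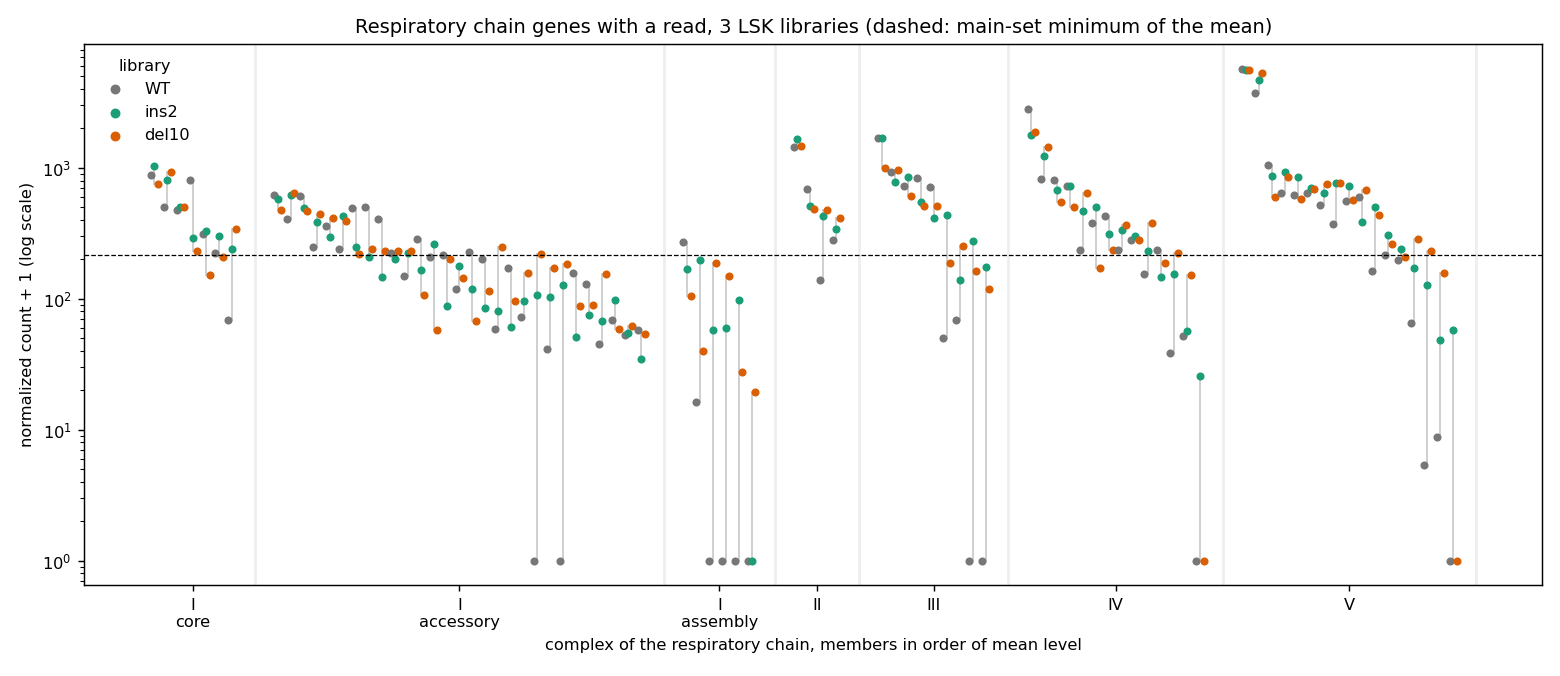
Normalized count + 1 (log axis) of the 86 respiratory chain genes with a read, in order of mean level within each complex; grey points are WT, green ins2 and orange del10, 1 library each, and the dashed line is the main-set minimum of the mean. *Atp5b* and *Atp5a1* stand above all other members in all 3 libraries, and 10 members lie at 0 in WT against 1 in ins2 and 2 in del10.

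The respiratory chain genes as a whole were at near the same level in the 3 libraries. The summed normalized counts of all members were 39790 in WT against 42425 in ins2 and 41917 in del10, or 0.433%, 0.465% and 0.445% of the reads without the ribosomal RNA precursor *Rn45s*. *Atp5a1* and *Atp5b* made up 23.8% to 26.0% of this sum. The median log2 ratio of the 49 main-set members was 0.03 for del10 to WT, 0.19 for ins2 to WT and -0.06 for del10 to ins2, where the medians of all 7073 genes were 0.04, 0.04 and 0.01. Around these medians the members spread as widely as other genes in del10 to WT, with a distance between quartiles of 1.19 against 1.12 for all genes, and less widely in ins2 to WT (0.79 against 1.12) and del10 to ins2 (0.53 against 0.63).

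Single members were past 2-fold at shares near those of other genes or below them. In del10 against WT the share was 24.5% of the 49 members, against 25.5% of all main-set genes. Of the members 7 were over 2-fold higher, where 15.3% of all main-set genes were, and 5 were over 2-fold lower, where 10.2% were. The higher ones were *Ndufv2*, *Sdhc*, *Uqcrq*, *Cox7c*, *Cox8a*, *Atp5e* and *Atp5g2*, and the lower ones *Ndufs3*, *Ndufs7*, *Ndufb5*, *Ndufv3* and *Ndufa4*. In ins2 against WT, 5 were over 2-fold higher (15.7% of all genes) and 3 over 2-fold lower (10.7%). The higher ones were *Ndufv2*, *Sdhc*, *Uqcrq*, *Atp5e* and *Atp5g2*, and the lower ones *Ndufs3*, *Ndufa3* and *Ndufv3*; both comparisons use the same WT library. In del10 against ins2, 0 were over 2-fold higher (3.59%) and 3 over 2-fold lower (4.03%), which were *Ndufs7*, *Uqcrq* and *Ndufa4*.

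Counting error is of the size of most of these ratios. No member had an interval wholly beyond 2-fold in any of the 3 comparisons. Intervals that left out a ratio of 1 were found above 1 for 1 member (10.9% of all main-set genes) and below 1 for 3 members (10.1%) in del10 against WT. In ins2 against WT they were found for 1 member above 1 (10.5%) and 2 below (10.3%), and in del10 against ins2 for 0 above (8.5%) and 3 below (7.76%). The members concerned were *Ndufs3*, *Uqcrc2*, *Uqcrq*, *Cox7a2l*, *Ndufa4* and *Atp5a1*, whose values follow by complex. *Uqcrq*, the 1 member above 1 in ins2 against WT, passed the main-set filter through its ins2 value alone.

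**Figure D2:**
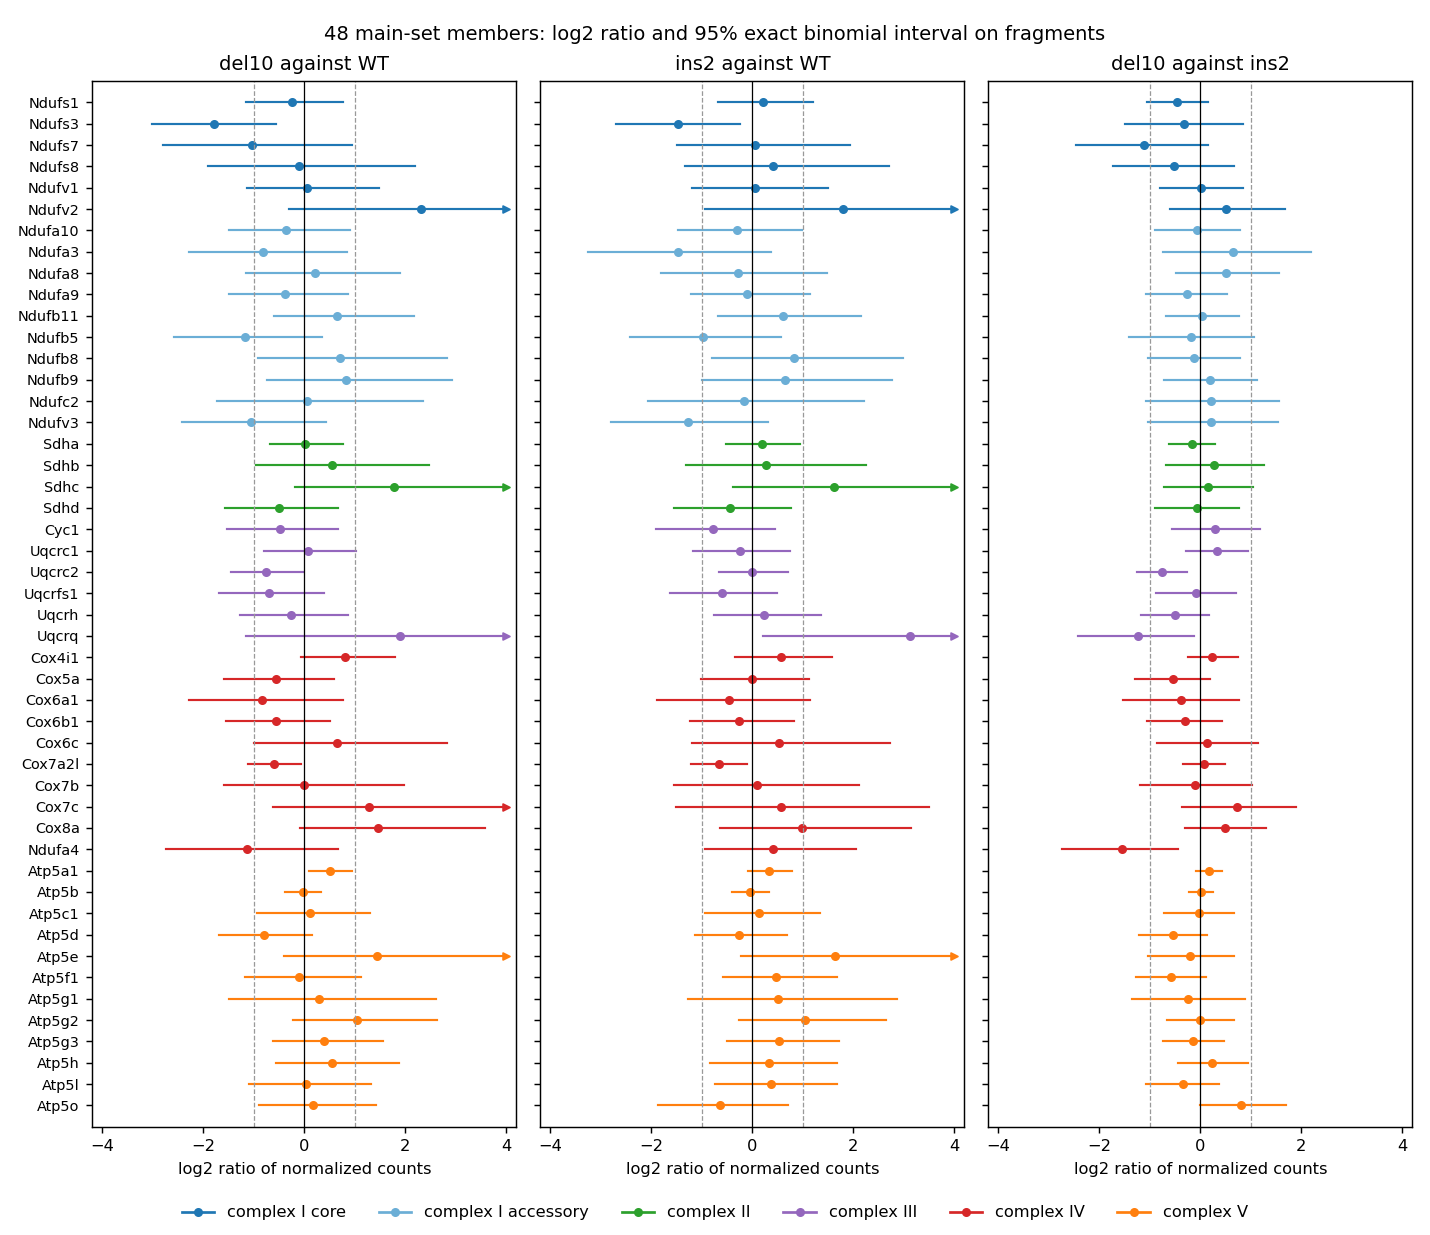
Log2 ratio of normalized counts (points) with the 95% exact binomial interval on fragments (lines, ending in an arrow where they run past 4) of 48 of the 49 main-set members, by complex, in the 3 comparisons; dashed lines mark 2-fold. The intervals are wide where WT enters and narrower in del10 against ins2, and no line lies wholly outside the dashed lines.

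The 7 core subunits of complex I, the NADH dehydrogenase, carry the flavin and the iron-sulfur clusters that take electrons from NADH to ubiquinone. Their median log2 ratio was -0.10 for del10 to WT, 0.21 for ins2 to WT and -0.32 for del10 to ins2, and the subunits did not move as a block. *Ndufs3* (chr2:90894636-90904721 on mm10, minus strand), a subunit near the ubiquinone site, had 808 normalized counts in WT against 290 in ins2 and 232 in del10. The level was high in WT alone, with a ratio of 0.287 for del10 to WT (interval 0.124 to 0.676) and 0.359 for ins2 to WT (0.154 to 0.848). *Ndufv2*, an iron-sulfur subunit beside the site of NADH oxidation, ran the other way with 68.2, 239 and 340. It rested on about 1 fragment in WT, so that the interval of the ratio to WT, 0.811 to 196 for del10, spans 1.

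*Ndufv1*, which binds NADH and the flavin and partners *Ndufv2*, was level at 479 normalized counts in WT against 497 in ins2 and 500.2 in del10. *Ndufs7*, which lines the ubiquinone pocket, had 312, 326 and 151. It was low in del10 alone, with a ratio to ins2 of 0.463 (interval 0.182 to 1.11). *Ndufs1*, the largest subunit of the matrix arm, had 885, 1024 and 747, and the iron-sulfur subunit *Ndufs8* had 224, 300.1 and 209. The intervals of all ratios of *Ndufs1* and *Ndufs8* included 1.

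Accessory subunits surround that core and stabilise it. The 10 of them in the main set had median log2 ratios of -0.16 for del10 to WT, -0.22 for ins2 to WT and 0.11 for del10 to ins2. *Ndufv3*, a small subunit of the NADH-oxidising module, had 501 normalized counts in WT against 207 in ins2 and 239 in del10. *Ndufb5*, of the proton-pumping membrane arm, had 495, 250 and 219, and *Ndufa3*, of the same arm, had 405, 146 and 229. In these 3 genes WT was the highest library. *Ndufb9*, also of the membrane arm, had its lowest value in WT with 246, against 386 in ins2 and 440.0 in del10. All intervals of these 4 genes included 1, and in del10 against ins2 0 of the 10 accessory subunits passed 2-fold.

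Complex II, succinate dehydrogenase, is also an enzyme of the citrate cycle and is encoded wholly in the nucleus. Its flavoprotein *Sdha*, which oxidises succinate, was the most abundant of the 4 with 1448 normalized counts in WT against 1646 in ins2 and 1463 in del10. The ratio of del10 to WT was 1.01 (interval 0.626 to 1.70), and the order of the 3 libraries is not resolved. The iron-sulfur subunit *Sdhb* had 281, 341 and 412. The membrane anchors differed from each other: *Sdhc* had 139 in WT against 427 in ins2 and 475 in del10, while *Sdhd* had 692, 509 and 485. *Sdhc* was low and *Sdhd* high in WT, on 2.07 and 10.3 fragments, and the intervals of the ratio of del10 to WT were 0.882 to 28.2 and 0.336 to 1.59. Between del10 and ins2 all 4 subunits were within 1.21-fold.

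Complex III passes electrons from ubiquinol to cytochrome c. The core protein *Uqcrc2* had 1684 normalized counts in WT against 1676 in ins2 and 990.0 in del10. It was low in del10 alone, at 0.591 of the ins2 value (interval 0.416 to 0.834) and 0.588 of the WT value (0.364 to 0.977). *Pdzd9* overlaps it on the other strand, and the strand setting of the counting is not known here. Its partner *Uqcrc1* had 924, 775 and 969 and did not share this order. *Uqcrq*, a small subunit next to cytochrome b, had 49.5 in WT against 438 in ins2 and 186 in del10. It was highest in ins2, with a ratio of del10 to ins2 of 0.424 (0.187 to 0.911), while its WT value stood on under 1 fragment. Only its ins2 value was above the main-set minimum of 215, so the filter itself favoured a high ins2 value in this gene. The catalytic subunits were somewhat higher in WT: the Rieske iron-sulfur protein *Uqcrfs1* had 833, 547 and 514, and cytochrome c1 (*Cyc1*) had 709, 415 and 506. Their intervals all included 1.

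Complex IV, cytochrome c oxidase, reduces oxygen, with a catalytic centre made in the mitochondrion and a shell of nuclear subunits. *Cox4i1*, the regulatory subunit that binds ATP, had 827 normalized counts in WT against 1219 in ins2 and 1439 in del10. Its ratio of del10 to WT was 1.74, with an interval of 0.955 to 3.46. *Cox5a* had 729, 728 and 497. *Cox5b* had 37.4, 152 and 224, below the main set.

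Among the small subunits of complex IV, *Cox8a* had 234 normalized counts in WT against 464 in ins2 and 647 in del10, and *Cox7c* had 154, 229 and 378. Both were lowest in WT and highest in del10, and *Cox6a1* was in the opposite order with 427, 309 and 237. A pseudogene of *Cox7c* also had reads, and with these added *Cox7c* had 279, 252 and 390, so that ins2 and not WT was lowest. The log2 ratio of del10 to WT was then 0.48 in place of 1.29, within 2-fold, and that of ins2 to WT -0.14 in place of 0.57. *Ndufa4*, named as a complex I protein but known as a subunit of complex IV, had 375, 501 and 171. It was low in del10, with a ratio to ins2 of 0.342 (interval 0.149 to 0.731), the lowest of the 49 members in that comparison. *Cox7a2l*, which encodes a protein like subunit VIIa of cytochrome c oxidase, had 2830, 1782 and 1862. It was higher in WT, with ratios of 0.658 for del10 (0.458 to 0.960) and 0.630 for ins2 (0.431 to 0.933).

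The tissue isoforms of complex IV were low or without reads. *Cox6a2*, the form of heart and skeletal muscle, was at 0 in WT against 24.6 in ins2 and 0 in del10, on little more than 1 fragment. *Cox6b2*, the form of testis, had 51.0, 56.1 and 150 normalized counts. *Cox4i2* (lung), *Cox7a1* and *Cox8b* (muscle) and *Cox8c* (testis) had no read, which allows up to 3 fragments in a library, or 183 reads for WT, 63 for ins2 and 48 for del10.

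Complex V, the ATP synthase, held the most abundant members. *Atp5b*, the catalytic beta subunit, had 5723 normalized counts in WT against 5539 in ins2 and 5598 in del10. With 85.3, 268 and 344 fragments behind them these were the best-counted values of all members, and the ratio was 0.978 for del10 to WT (interval 0.770 to 1.26), 0.968 for ins2 to WT (0.756 to 1.25) and 1.01 for del10 to ins2 (0.859 to 1.19). *Atp5a1*, the alpha subunit that alternates with it in the head, had 3751, 4722 and 5309. It was 1.42-fold higher in del10 than in WT (1.06 to 1.91) and 1.26-fold higher in ins2 than in WT (0.936 to 1.72). The gamma subunit *Atp5c1*, the rotating shaft, was level at 641, 704 and 690.

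Among the other parts of the rotor, *Atp5e* (epsilon) had 161 normalized counts in WT against 503 in ins2 and 439 in del10, while *Atp5d* (delta), its direct neighbour, had 1041, 870 and 597. *Atp5e* was lowest and *Atp5d* highest in WT, and the intervals of the ratios to WT included 1 for both. The ring of c subunits is encoded by *Atp5g1*, *Atp5g2* and *Atp5g3*, which give the same mature protein. *Atp5g2* had 370, 763 and 762, with a ratio of 2.06 in both comparisons with WT (0.853 to 6.22 for del10). *Atp5g1* (214, 306 and 260) and *Atp5g3* (645, 932 and 843) were also lowest in WT, and their intervals included 1 too. *Atp5o*, which ties the head to the stalk, had 594, 382 and 672. The 12 main-set members of complex V had median log2 ratios of 0.23, 0.35 and -0.09. Of the 12, 9 were above 0 in each comparison with WT, where 3683 (del10) and 3692 (ins2) of all 7073 main-set genes were.

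By complex, the median log2 ratios of complex III were -0.38 for del10 to WT, -0.13 for ins2 to WT and -0.29 for del10 to ins2, and for complex IV -0.28, 0.26 and -0.02. For complex II they were 0.28, 0.23 and 0.04. The interval of the median from its order statistics included 0 for every complex and comparison. This interval takes genes and not libraries as its units. For complex I core, II and III it ran from the lowest to the highest gene, so nothing about the libraries follows from it.

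The size of the ratios followed the level of the gene. Of the 26 members whose mean reached 500 normalized counts, a level chosen after the values were seen, 1 was past 2-fold in del10 against WT, where 18.6% of the 4417 genes at that level were, and 1 in ins2 against WT, where 19.3% were. It was *Atp5g2* in both cases. In del10 against ins2 the count was 0, where 3.28% of genes were past 2-fold. Of the 23 main-set members below 500, by contrast, 11 (47.8%) were past 2-fold in del10 against WT, 7 (30.4%) in ins2 against WT and 3 (13.0%) in del10 against ins2, where all genes at that level had 36.9%, 37.9% and 14.8%. The members of low level had few fragments in WT.

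**Figure D3:**
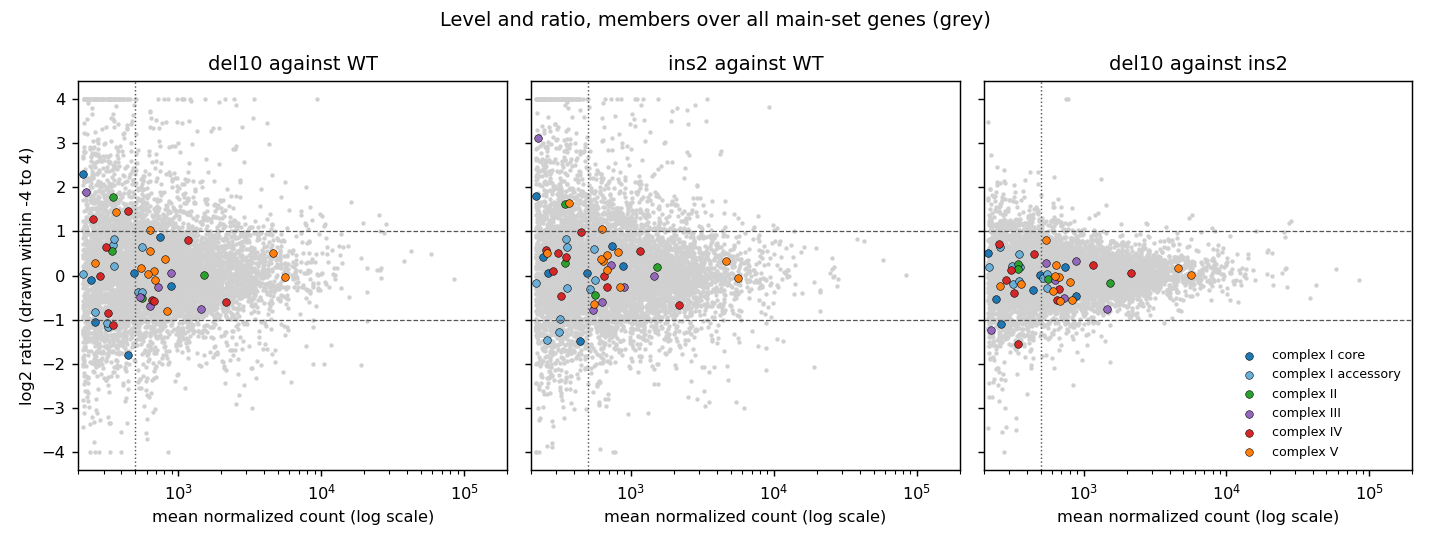
Log2 ratio (drawn within -4 to 4) against the mean normalized count (log axis) for the 49 main-set members, coloured by complex, over all 7073 main-set genes in grey; dashed lines mark 2-fold and the dotted line a mean of 500. To the right of the dotted line 25 of 26 members lie within 2-fold in del10 against WT and in ins2 against WT, and all 26 in del10 against ins2.

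Below the main set were 37 members, mostly small accessory subunits and assembly factors. In del10 against WT 19 of them were over 2-fold higher (45.1% of all genes below the main set) and 4 over 2-fold lower (20.7%). For ins2 to WT the counts were 16 higher (41.7%) and 4 lower (20.7%), and in del10 against ins2 9 were higher (27.2%) and 5 lower (23.9%). As shares of the 37, the members higher than WT lay somewhat above the background in both comparisons with WT. All the other counts lay below it, and counting error alone is large at these levels.

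The members at 0 were all below the main set. In WT 10 of 86 (11.6%) were at 0, where 3108 of 14145 genes with a read were. They were *Ndufa2*, *Ndufa7*, *Ndufaf2*, *Ndufaf3*, *Ndufaf4*, *Ndufaf6*, *Uqcr10*, *Uqcrb*, *Atp5k* and *Cox6a2*. In ins2 only *Ndufaf2* was at 0 (1.16%, against 9.54% of genes with a read), and in del10 only *Atp5k* and *Cox6a2* (2.33%, against 7.63%). *Uqcrb*, which binds ubiquinone in complex III, had 276 normalized counts in ins2 and 161 in del10. A count of 0 in WT allows up to 3 fragments, or 201 normalized counts, so that the ins2 value stood 1.37-fold above this floor and del10 below it. The floor leaves out the counting error of the ins2 value. The intervals of the ratios to WT began at 0.969 for ins2 and 0.537 for del10, so both included 1. *Uqcr10*, another small subunit of complex III, had 173 in ins2 and 118 in del10. Of the 6 assembly factors of complex I, which build the enzyme but are not part of it, 4 were at 0 in WT, and *Ndufaf1* was highest there with 272 against 167 and 105.

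Levels between genes were compared per kb of the longest coding transcript of GENCODE vM21, available for 85 of 86 members. In normalized counts per kb the order of the mean over the libraries was *Atp5b* (2933), *Cox7a2l* (1911), *Atp5a1* (1718), *Cox4i1* (1519) and *Uqcrh* (1329). *Atp5b* led in each library with 2987 in WT against 2891 in ins2 and 2922 in del10. The places after it depended on the library: *Cox7a2l* came next in WT (2507), and *Atp5a1* in ins2 (1766) and del10 (1985). The median per kb of complex I core subunits, all 7 in the main set, was 310 in WT against 299 in ins2 and 222 in del10. That of the 12 main-set members of complex V was 723, 994 and 1040. In these main-set medians complex V lay above complex IV, complex IV above III and III above II in all 3 libraries. Whether neighbours in this order differ was not tested. The main set was itself chosen by level. Over all members with a read the order did not hold in WT, where complex III was above IV and V. Members of the main set had a median transcript length of 1079 bases and those below it of 786, and longer transcripts collect more reads.

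Other genes of mitochondrial energy supply were described in the same way. The 13 subunits encoded by mitochondrial DNA were not analysed here. Of the citrate cycle genes, which feed NADH and succinate to the chain, all 13 were in the main set, with median log2 ratios of 0.70 for del10 to WT, 0.07 for ins2 to WT and 0.31 for del10 to ins2. Against WT, 2 of the 13 were over 2-fold higher in del10 (15.4%, against 15.3% of all main-set genes) and 0 lower (10.2% of all genes), and 1 was higher in ins2 (7.69%, against 15.7%) and 1 lower (7.69%, against 10.7%). In del10 against ins2 0 passed 2-fold in either direction (3.59% and 4.03% of all genes). *Idh3g*, a regulatory subunit of isocitrate dehydrogenase, had 228 normalized counts in WT against 831 in ins2 and 601 in del10.

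Of the regulators of mitochondrial biogenesis the main set held 14, whose medians were 0.13, -0.48 and 0.29. None was over 2-fold higher than WT in either knock-in library (15.3% and 15.7% of all genes), 1 was lower in del10 (7.14%, against 10.2%) and 2 were lower in ins2 (14.3%, against 10.7%). *Tfb2m*, a transcription factor of mitochondrial DNA, had 500.3 normalized counts in WT against 278 in ins2 and 165 in del10, and *Gabpb1*, the partner of GABPA in the GABP factor, had 1479, 701 and 865. Both were highest in WT. In del10 against ins2, 2 regulators were over 2-fold higher (14.3%, against 3.59% of all genes) and 0 lower (4.03%). *Nrf1*, which encodes the factor of the NRF1 letters, had 634, 406 and 1050 normalized counts, with a ratio of del10 to ins2 of 2.59 (interval 1.54 to 4.53). *Tfam*, which packages mitochondrial DNA and starts its transcription, had 543, 281 and 612, with a ratio of 2.18 (1.15 to 4.40). Both were lowest in ins2 and highest in del10.

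Of 76 proteins of the mitochondrial ribosome, which makes the subunits encoded in the organelle, the main set held 25, whose medians were -0.47, -0.46 and 0.19. Of these, 2 (8.0%) were over 2-fold higher and 4 (16%) lower in del10 against WT, where 15.3% and 10.2% of all genes were. For ins2 to WT the counts were 1 (4.0%) and 9 (36.0%), against 15.7% and 10.7%, and in del10 against ins2 4 (16%) were higher and 1 (4.0%) lower, against 3.59% and 4.03%. *Mrpl51* had 637 in WT against 120 in ins2 and 287 in del10.

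The carriers that export ATP and the regulators of proton leak had medians of 0.47, 0.69 and 0.20 over 10 main-set genes. *Atpif1*, the inhibitor of ATP synthase in reverse, had 71.5 normalized counts in WT against 231 in ins2 and 437 in del10, and *Slc25a5*, an ADP/ATP carrier, had 1430, 2243 and 2479. Both were lowest in WT, and the ratio of del10 to WT was 1.73 for *Slc25a5* (interval 1.10 to 2.87). The summed level of the list was nevertheless highest in WT, with 17649 against 16026 in ins2 and 17583 in del10. Of its 10 main-set genes, 4 had a log2 ratio below 0 in del10 to WT and 3 in ins2 to WT. Of the carriers between complexes and the ubiquinone pathway only 3 were in the main set, of which cytochrome c (*Cycs*) had 409, 492 and 510. The list drawn as assembly factors of complexes II to V also holds factors of complex I. Its medians were -0.38, -0.21 and -0.17 over 9 genes. These 9 include *Acad9*, a complex I factor whose own log2 ratios to WT were -0.38 for del10 and -0.21 for ins2. The import machinery had medians of 0.20, -0.08 and 0.13 over 9 genes.

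Glycolysis, the other route to ATP, had medians of 0.73 for del10 to WT, 0.70 for ins2 to WT and 0.11 for del10 to ins2 over 20 main-set genes. Of these, 6 (30.0%) were over 2-fold higher and 1 (5.0%) lower in del10 against WT, where 15.3% and 10.2% of all genes were. For ins2 to WT the counts were 6 (30.0%) and 2 (10%), against 15.7% and 10.7%, and in del10 against ins2 1 (5.0%) was higher and 2 (10%) lower, against 3.59% and 4.03%. The summed level of its 23 genes was 20005 normalized counts in WT against 31059 in ins2 and 32835 in del10. *Slc2a3*, a glucose transporter, had 370, 1969 and 2315, and *Aldoc*, an aldolase, ran the other way with 709, 225 and 69.3. The proteins of the cytosolic ribosome had medians of 0.61, 0.47 and 0.15 over 80 genes. Of these, 8 (10%) in del10 and 6 (7.5%) in ins2 were over 2-fold higher than WT, where 15.3% and 15.7% of all genes were, 0 were lower, and 0 passed 2-fold in del10 against ins2. The ratios to WT were small but mostly of 1 sign. In del10, 76 of the 80 were above 0 and 4 below, and in ins2 70 were above and 10 below. Of all 7073 main-set genes, 3683 and 3692 were above 0. Intervals lay wholly above 1 for 52 ribosomal genes in del10 and 37 in ins2, where 10.9% and 10.5% of all main-set genes had this. Whether the lists differ from the respiratory chain genes was not tested, and the marker sums given above moved with the same comparisons.

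**Figure D4:**
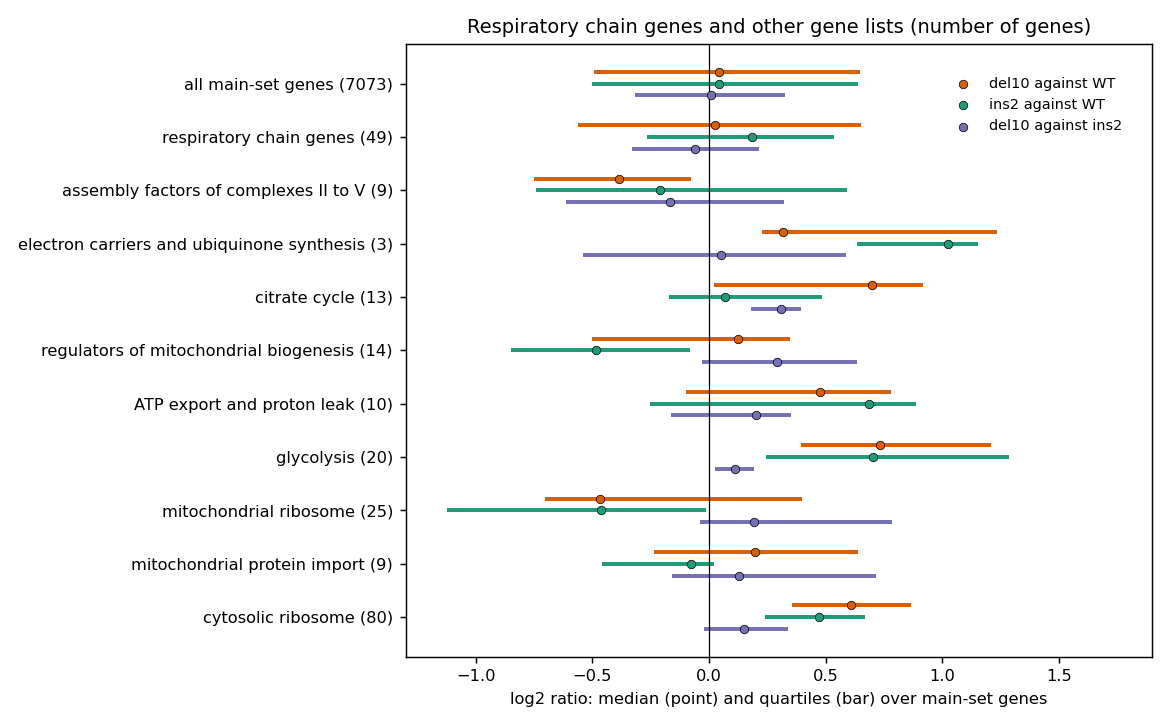
Median (point) and quartiles (bar) of the log2 ratio over the main-set genes of each list, with the number of genes, in del10 against WT (orange), ins2 against WT (green) and del10 against ins2 (purple). The bars of the respiratory chain genes span 0 in all 3 comparisons, while those of glycolysis lie above 0, with medians of 0.73, 0.70 and 0.11. This is not particular to glycolysis. The bars of the cytosolic ribosome also lie above 0 in both comparisons with WT. Those of the citrate cycle do so in del10 against WT and del10 against ins2. Other bars lie below 0, such as that of the mitochondrial ribosome in ins2 against WT.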

How the data were processed

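RNA was sequenced in 3 LSK libraries, 1 per genotype, each from 5 ng of total RNA after depletion of ribosomal RNA with a directional kit, as 75-base single-end reads. Per the submitters' processing notes and the study's methods, the authors used bcl2fastq 2.20, Trimmomatic 0.32, TopHat2 2.1.1 and Bowtie2 2.2.3 on mm10 and counted reads per RefSeq gene. The authors deposited an estimated count per gene, whole to within 0.01 reads for 63.1% to 75.0% of the members with reads. A log2 value, scaled with TMM (trimmed mean of M-values) factors, was deposited beside it. Removal of duplicate reads and the strand setting are not given in the sources used here. The factors recovered from the deposited values were 1.10 for WT, 0.984 for ins2 and 1.02 for del10, and were applied to the counts without rounding.

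With 1 library per genotype no test over samples exists, and a gene was counted when its ratio passed 2-fold with a pseudocount of 1. Intervals were exact binomial ones (95%) on fragments, the reads divided by the commonest low count between 5 and 150 reads, smoothed over 5 counts to either side. A count of 0 was taken to allow 3 fragments. Intervals and this floor cover counting error only, and totals of 9823095 to 11111698 reads set the precision. Values in all 3 libraries were given for core subunits, for the 4 members of each role with the largest ratio to WT in the main set and for tissue isoforms. *Cox7a2l*, *Atp5g1*, *Atp5g3*, *Ndufaf1*, *Uqcrb*, *Uqcr10*, *Nrf1* and *Tfam* were added after their values were seen. The members and the 18 gene lists were chosen with earlier results of these data known. *Ndufs5* and *Cox7c* have a pseudogene copy with reads, and 7 members overlap another gene with reads on the other strand, so their reads may be shared. Of the genes these rules name, 2 are not reported here. Steps were tested on simulated data. Python 3.11.15, NumPy 2.4.6, pandas 2.3.3, SciPy 1.17.1 and matplotlib 3.10.9 were used.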

Additional observations from a re-analysis of the deposited data

Results flagged for a closer look

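Reads were found on pseudogene copies of members, rows that the comparisons do not use. All were above 3 reads, but at 61, 21 and 16 reads to a fragment each was under the 3 fragments that a count of 0 allows. *BC002163*, a pseudogene of *Ndufs5* on chromosome 16, had 155 reads in WT against 33 in ins2 and 14 in del10, and *Ndufs5* itself 155, 61 and 94 (170, 60.0 and 95.7 normalized counts). *Gm10012*, a pseudogene of *Cox7c* on chromosome 17, had 113, 23 and 11.3 reads, and *Cox7c* itself 141, 233 and 371. Both copies had their highest count in WT. Of 85 rows of such pseudogenes these 2 had reads. With the reads of copy and gene added, an alternative chosen after the data were seen, the log2 ratio of del10 to WT was 0.48 for *Cox7c* in place of 1.29 and that of ins2 to WT -0.14 in place of 0.57, and the ratio of del10 to WT was -1.62 for *Ndufs5* in place of -0.82.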

How the results depend on the processing

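The alternatives were other pseudocounts, filters and scalings, zeros set to 3 reads, the mean, subunits only, and members without a copy, without an overlapping gene or with at least 5 fragments in WT. The sign of the medians is not settled: 9 of 45 medians over all members and 16 of 138 medians by complex turned. With at least 5 fragments in WT the median of all members was -0.25 in place of 0.03 for del10 to WT and -0.03 in place of 0.19 for ins2 to WT. That filter keeps members by their WT value, which in itself lowers ratios to WT. It was not applied to the other genes, so nothing about the sign follows from it. For del10 to WT the median of all members was also below 0 under each of the 3 other scalings (-0.05, -0.02 and -0.02) and at a mean of at least 500 (-0.07) or 1000 (-0.01). For del10 to ins2 it was 0.04 without a filter and at a mean of at least 1000, in place of -0.06. At a mean of at least 500, complex II was at -0.25 in place of 0.28 and complex I core at 0.31 in place of -0.10 for del10 to WT, and complex IV at -0.13 in place of 0.26 for ins2 to WT. Without a filter complex III was at 0.07 in place of -0.38 for del10 to WT and 0.23 in place of -0.13 for ins2 to WT. No scaling moved the median of all genes by over 0.1 log2. Of 90 counts past 2-fold, 24 changed by over 1.5 times, all through filters or intervals. Without a filter on low values the counts higher and lower were 26 and 9 of 86 for del10 to WT (30.2% and 10.5%, against 30.2% and 15.5% of all 14145 genes), of which 8 of the higher were at 0 in WT. They were 21 and 7 for ins2 to WT (24.4% and 8.14%, against 28.7% and 15.7%), with 9 at 0 in WT, and 9 and 8 for del10 to ins2 (10.5% and 9.30%, against 15.4% and 13.96%). At a mean of at least 1000, with 6 members left, and for intervals wholly beyond 2-fold, all were 0. At a mean of at least 500 (added after the data were seen) they were 1 and 0, 1 and 0, and 0 and 0. With at least 5 fragments in WT (34 members, also added later) the higher counts were 1 for del10 and 1 for ins2 to WT, and the lower count of del10 to ins2 was 1. Choosing members by their WT value in itself removes higher counts to WT, so nothing about the members follows from that drop. The WT library's fragments limit what its comparisons can resolve. No paired analysis was possible because each genotype has 1 library.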
